A study of Mus musculus with 13 samples.

Results

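Among 9 mouse melanoma cell lines with an H3K27ac peak list, 5 lists held a peak within 1 kb of the Sp5 transcription start site (TSS) and 4 held none, and the lines were divided on that call. The marked lines were Ma_1007 and Ma_1181 (male Ecad) and Ma_1057, Ma_1064 and Ma_1069 (female ΔEcad). The unmarked lines were Ma_1014 and Ma_1039 (female Ecad) and Ma_1062 and Ma_1456 (male ΔEcad). H3K27ac is the acetylation of lysine 27 of histone H3, which marks active promoters and enhancers. All lines were grown in F12 medium with 10% fetal bovine serum from tumours of mice that carried the Tyr::NRAS Q61K transgene and were Cdkn2a+/−, with Cdh1 F/F alleles. Cdh1 encodes E-cadherin; ΔEcad animals carried Tyr::CreA in addition, which deletes it, whereas Ecad animals did not. The Tyr promoter drives both the oncogene and the recombinase in the melanocyte lineage, each line was 1 cell line with 1 list, and the 4 input libraries of the series were not analysed here. Each side was made of 2 whole groups, so within a genotype the side cannot be told apart from sex, and the direction of sex was opposite in the 2 genotypes.

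Sp5 is a zinc-finger transcription factor of the Sp family and a direct target of Wnt signalling. When a Wnt ligand binds a Frizzled receptor and an LRP co-receptor, β-catenin escapes degradation, enters the nucleus and joins TCF/LEF factors on DNA. Many of the genes switched on in this way feed back on the pathway, among them Axin2, Nkd1, Znrf3 and Notum. In melanocytes the pathway acts in the specification of the lineage, and β-catenin also binds the cytoplasmic tail of E-cadherin. The question was whether promoters and regions of the Wnt pathway followed the Sp5 call in both genotypes.

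All 5 marked lists had a peak across the single Sp5 TSS (GRCm38, chr2:70474923-70477729, + strand), and these values chose the sides and were not tested. In line Ma_1007 the peak was 610 bp wide with a fold enrichment of 3.65 over its background, and its −log10 q stood at percentile 8.60 of that list. In line Ma_1181 it was 2548 bp wide with a fold enrichment of 32.6, at percentile 86.0. Line Ma_1057 had a peak of 1365 bp with a fold enrichment of 6.42, at percentile 69.9. Line Ma_1064 had a peak of 907 bp with a fold enrichment of 4.55, at percentile 53.5. Line Ma_1069 had the widest peak, 5490 bp, with a fold enrichment of 7.18, at percentile 79.4. The mark at Sp5 was therefore strong in Ma_1181 and close to the weakest peaks of its list in Ma_1007, whose −log10 q of 9.47 placed that line just inside the call and would put it outside at a minimum of 10. The summits lay 285 to 375 bp downstream of the TSS. In the unmarked lines the nearest peak was 149897 to 150597 bp from the TSS, beyond the gene. A peak that is not called is not evidence that the mark was absent, since the lists hold no counts below their threshold.

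The sequence under the Sp5 peaks is shown because TCF/LEF factors bind DNA and the letters they recognise can be read from it. The letters CTTTGAT and CTTTGAA were searched on both strands of GRCm38.p6. The region at Sp5 joined from all lists, chr2:70470262-70476133, held 8 matches in 5872 bp, or 1.36 per kb. The 610 bp shared by all 5 marked peaks, chr2:70474716-70475325, held 4 of them, centred 101 bp upstream and 53, 92 and 117 bp downstream of the TSS. The 250 bases before the TSS (RefSeq, GRCm38.p6, chr2:70474673-70474922, + strand) follow with the match in capitals.
Sp5 upstream: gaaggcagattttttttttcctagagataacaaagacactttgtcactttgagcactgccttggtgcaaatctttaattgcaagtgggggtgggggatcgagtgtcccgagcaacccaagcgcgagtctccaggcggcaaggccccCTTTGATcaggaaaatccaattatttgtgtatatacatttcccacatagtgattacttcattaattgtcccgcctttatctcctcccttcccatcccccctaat
Of 31396 RefSeq promoter windows of 300 bases on the same build, 8.64% held such a match, the Sp5 window among them, and 6.96% held the same letters reversed (TAGTTTC or AAGTTTC), which served as a control of equal base composition. A match is a description of letters and not a measured binding site.

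Matches in the regions of 4 pathway genes that are described further on are given with 10 bases on either side, all read on the + strand of GRCm38.p6 with the match in capitals, so that ATCAAAG and TTCAAAG are matches on the − strand. Those of Sp5, Kremen1 and the first of Tcf7 lay within peaks of at least 4 of the 5 marked lists, and that of Nkd1 within peaks of 3.
Sp5 at chr2:70474809-70474835, 5 lists: gcaaggccccCTTTGATcaggaaaatc
Sp5 at chr2:70474963-70474989, 5 lists: gctttgtggaTTCAAAGgatttgcttt
Sp5 at chr2:70475002-70475028, 5 lists: agccgctattCTTTGATgattgggtag
Tcf7 at chr11:52284449-52284475, 4 lists: ctggcggaggATCAAAGagaccaggcc
Tcf7 at chr11:52285048-52285074, 3 lists: ttgcccttttATCAAAGaacaaggcct
Kremen1 at chr11:5240165-5240191, 5 lists: cagctgagaaATCAAAGtggcagggct
Kremen1 at chr11:5240245-5240271, 5 lists: ctgagttcagCTTTGATgtagtattgg
Nkd1 at chr8:88523166-88523192, 3 lists: caagctgaggATCAAAGgatgaatcaa
The 3 Sp5 matches were 2 on the + strand and 1 on the − strand, and the second of Tcf7 lay outside the peaks of Ma_1057 and Ma_1064.

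Differences in list size between the sides did not pass the test. The lists held 20350 (Ma_1069) to 40824 (Ma_1007) autosomal peaks, with 28036 ± 7752 (SD, n = 5) in marked and 27659 ± 2208 (n = 4) in unmarked lines, a difference of 377 that did not pass an exact two-sided permutation test over all ways to choose 5 of 9 lists (p = 0.913). Covered length (41.6 ± 14.5 against 43.5 ± 4.69 Mb, exact permutation p = 0.841) and median peak width (1068.5 ± 101 against 1141.5 ± 63.7 bp, exact permutation p = 0.254) did not pass either. The melanocyte markers Mitf, Sox10, Dct, Tyr, Pmel, Mlana and Pax3 had a called promoter in all 9 lists and Tyrp1 in 6. Of 5 immune markers none was called, the fibroblast and endothelial lists had 1 call each (Pdgfra and Tek, both in Ma_1007), and of 5 keratinocyte markers only Krt10 was called, in 2 marked and 3 unmarked lists. The Cdh1 promoter was called in no list, and peaks covered 1.66 to 3.16 kb of the gene in the female ΔEcad lines and 4.45 to 8.79 kb in the other 6.

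Peak positions were shared more within than between sides, but the margin was small. With the Sp5 region left out, the Jaccard index (shared over joint covered bases of 2 lists) averaged 0.444 within and 0.400 between sides, a difference of 0.0446 (exact permutation test, one-sided p = 0.0476). All replicates of a group lie on the same side, which enters this difference. The test moved single lists and not whole groups, so its p cannot tell the side from the group. Across genotypes, where no such pairs occur, the 6 pairs of marked lists averaged 0.367, the 4 pairs of unmarked lists 0.483 and the 10 pairs from different sides 0.391. The marked lines of the 2 genotypes thus had a lower index than pairs from different sides. Without line Ma_1014 the difference was 0.0206 (exact permutation p = 0.214), and p exceeded 0.05 without each of the other lines except Ma_1181.

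Of 16073 autosomal promoters called in at least 1 list besides Sp5, 25 were called in all 5 marked and no unmarked list, 0.156% of those tested, and 10 in all 4 unmarked and no marked list, 0.0622%. Fisher's exact test with Benjamini-Hochberg adjustment called 0 promoters at an adjusted p under 0.05, and 316 had an unadjusted p under 0.05. The smallest p that 5 against 4 lists can give is 0.00794, reached by these 35 promoters, and its adjusted value was 1. No single promoter could therefore pass, and the promoters named here are descriptions of the calls. Leaving out a line removes a condition, so these counts can only stay equal or rise. The 25 became 61 without Ma_1181, 44 without Ma_1062 and 41 without Ma_1064 or Ma_1069. The 10 became 69 without Ma_1062, 65 without Ma_1007, 40 without Ma_1456 and 30 without Ma_1181.

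Tcf7 was the only gene of the 96 Wnt pathway genes whose promoter followed Sp5 in every list. Tcf7 encodes TCF1, a nuclear partner of β-catenin and itself a target of the pathway. Its strongest promoter peak had a fold enrichment of 16.2 in Ma_1007, 30.8 in Ma_1181, 10.5 in Ma_1057, 4.50 in Ma_1064 and 10.8 in Ma_1069, at percentiles 84.5, 89.5, 86.7, 38.2 and 91.7 of the lists, and no unmarked list had a peak within 1 kb of either of its 2 TSSs. The split region lay 463 bp upstream of the gene, at chr11:52283477-52285534, and the peak of Ma_1064 lay at -1.30 to -0.613 kb from the start (negative is upstream), so that a window of 500 bp no longer called Tcf7 in every marked list.

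At the next level, 3 other pathway promoters equalled the Sp5 call in 8 of 9 lists, and 0 were its opposite in 8 or 9. Across all promoters, 0.84% equalled Sp5 in 8 or 9 lists and 1.13% were opposite to it in as many. Lef1, which encodes another TCF/LEF factor, was called in all 5 marked lists at percentiles 87.5 (Ma_1007), 86.9 (Ma_1181), 72.7 (Ma_1057), 49.4 (Ma_1064) and 73.5 (Ma_1069), and in 1 unmarked list, Ma_1456, at 64.4. Kremen1, a Dickkopf receptor that dampens Wnt signalling, was called in the marked lists at percentiles 83.9 (Ma_1007), 41.2 (Ma_1181), 72.9 (Ma_1057), 77.3 (Ma_1064) and 87.0 (Ma_1069), and in the unmarked line Ma_1062 at 14.2. Nkd1, an inhibitor that binds Dishevelled, was called in 4 marked lists, at percentiles 59.9 (Ma_1007), 52.4 (Ma_1181), 91.1 (Ma_1057) and 94.7 (Ma_1069), and in no unmarked list. Line Ma_1064 had a peak 1.49 kb downstream of the Nkd1 start, outside the 1 kb window. The unmarked lists had no peak within 6 kb of the outermost start, but held peaks farther out. Within 100 kb of Nkd1, peaks covered 15.031 kb in Ma_1014, 4.366 in Ma_1039, 0.422 in Ma_1062 and 2.006 in Ma_1456. In the marked lists they covered 8.495 (Ma_1007), 10.28 (Ma_1181), 24.97 (Ma_1057), 6.517 (Ma_1064) and 38.971 kb (Ma_1069). The sides overlapped in this measure through Ma_1014 alone. All 4 genes belong to the feedback targets, and Tcf7 and Lef1 are also TCF/LEF factors, so these are not separate pathway layers.

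**Figure D1:**
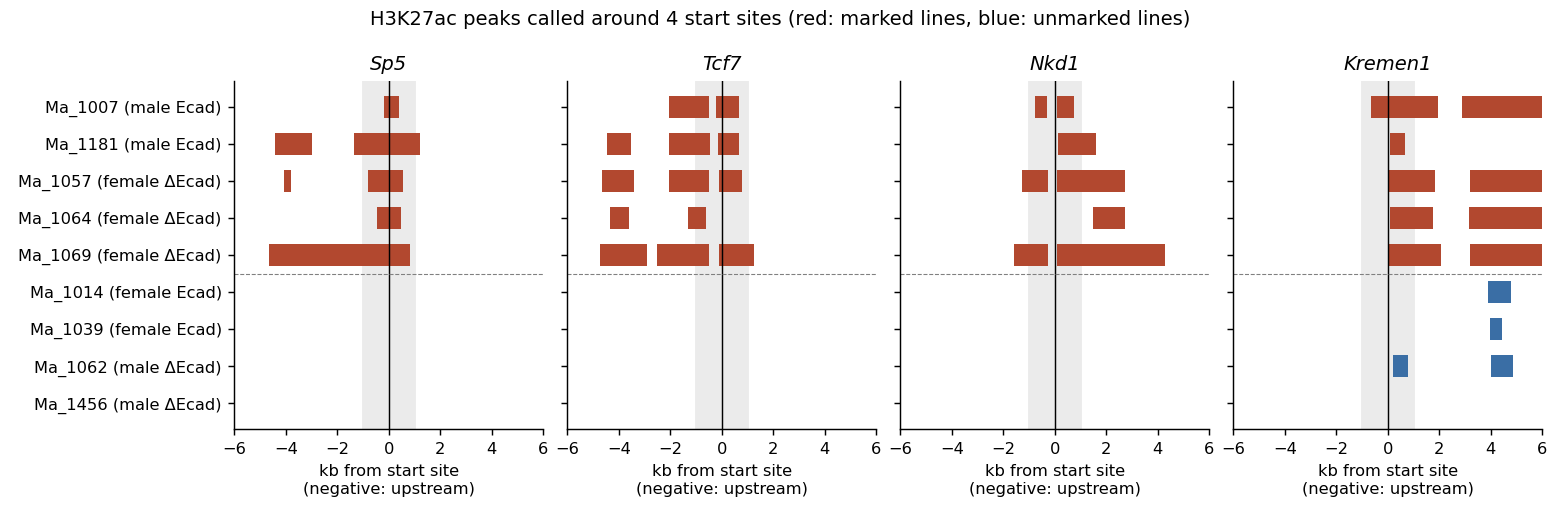
Peaks called within 6 kb of the outermost start sites of Sp5, Tcf7, Nkd1 and Kremen1, with distance from the start in kb on the x axis and 1 row per line. Red bars are peaks of the 5 marked lines, blue bars peaks of the 4 unmarked lines, and the grey band is the 1 kb window; blue bars appear only at Kremen1.

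The feedback targets of β-catenin as a list leaned to the marked side. Of 19 besides Sp5, 4 were called in all 9 lists (Axin2, Ccnd1, Myc and Bambi), 6 in none (Ascl2, Dkk1, Dkk4, Notum, Rnf43 and Wif1), and each of the remaining 9 was called in a higher share of marked than of unmarked lists. Over all 10222 promoters that varied between lists, 38.6% had the higher share in marked lists and 61.4% in unmarked lists. Sp5, Nkd1, Apcdd1, Axin2 and Notum were chosen by the study on these same lines, so their part of the count is not independent evidence of a direction. The marked lists called 12 (Ma_1007), 10 (Ma_1181), 10 (Ma_1057), 9 (Ma_1064) and 11 (Ma_1069) of the 19, or 10.4 ± 1.14 (SD, n = 5), and the unmarked lists called 5 (Ma_1014), 5 (Ma_1039), 6 (Ma_1062) and 6 (Ma_1456), or 5.5 ± 0.577 (n = 4). The sides did not overlap in the 1 kb window, but in a 500 bp window they met at 6 of the 19 (Ma_1064 on the marked side, Ma_1062 and Ma_1456 on the unmarked side). Line Ma_1069 called 11 of the 19 although its list had the fewest called promoters, 7451, against 10960 to 11753 in the unmarked lines. With every list reduced to its 20350 strongest peaks the counts were 9 to 11 and 4 to 6.

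**Figure D2:**
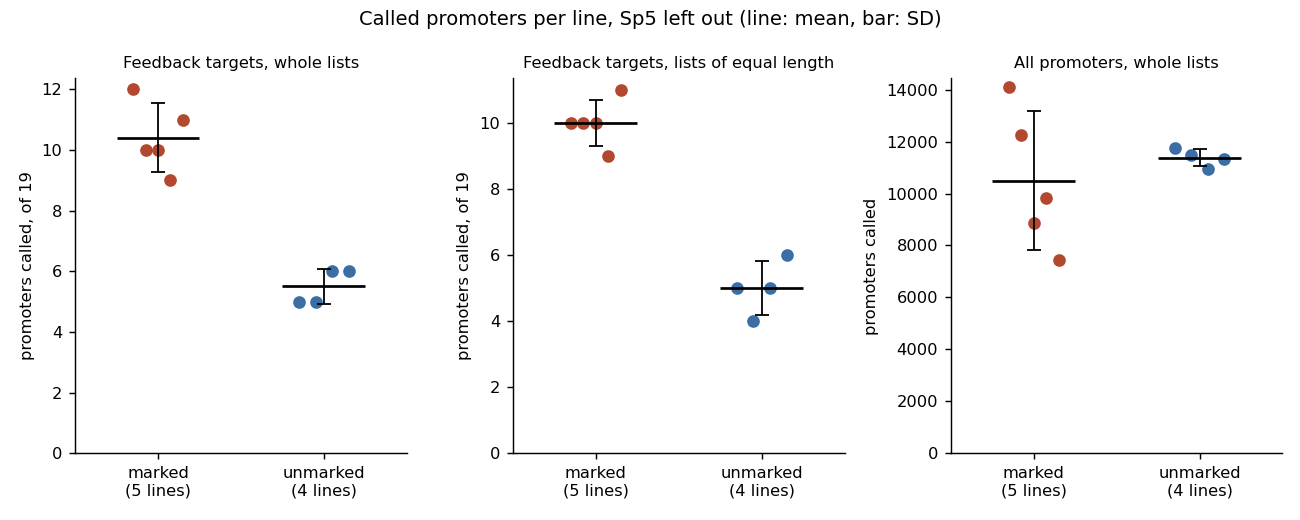
Called promoters per line, Sp5 left out, for 19 feedback targets in whole lists and in lists of equal length, and for all promoters, with 1 point per line, the mean as a line and the SD as a bar. In whole lists the marked lines lie between 9 and 12 targets and the unmarked lines between 5 and 6, in lists of equal length between 9 and 11 and between 4 and 6, while the marked lines spread from 7451 to 14095 promoters in all.

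Among the 9 variable targets the split was complete only at Tcf7. Tnfrsf19, a receptor of the TNF family, was called in all 5 marked and 3 unmarked lists, at percentiles of at least 88.3 in the marked lines and 91.3, 11.2 and 92.2 in Ma_1014, Ma_1039 and Ma_1456. Lgr5, the R-spondin receptor known as a stem cell marker, was called in 3 marked lists and in Ma_1062, at 44.4 (Ma_1007), 95.8 (Ma_1181), 42.5 (Ma_1064) and 91.5 (Ma_1062). Apcdd1, a membrane-bound Wnt inhibitor, was called in Ma_1057 and Ma_1069 only, at percentiles 37.0 and 46.1. Znrf3, a ubiquitin ligase that removes Frizzled receptors, was called in Ma_1007 at 53.1 and in Ma_1069 at 5.24, and Nkd2 in Ma_1007 alone at 30.7. Apcdd1 was thus confined to female ΔEcad lists and did not follow Sp5 into the male Ecad lines.

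The 4 targets called everywhere differed in the strength of their peaks. Axin2, a scaffold of the β-catenin destruction complex, stood at percentiles 97.7 (Ma_1007), 97.6 (Ma_1181), 96.3 (Ma_1057), 91.7 (Ma_1064) and 95.1 (Ma_1069) in the marked lists and 92.9 (Ma_1014), 80.6 (Ma_1039), 38.6 (Ma_1062) and 82.1 (Ma_1456) in the unmarked lists. The sides overlapped at Axin2 only through Ma_1014 and Ma_1064. Ccnd1, which encodes the cell-cycle regulator cyclin D1, ranged from 78.8 to 99.5 in marked and from 95.1 to 97.8 in unmarked lists, and Myc from 85.7 to 99.9 and from 74.7 to 97.0. Bambi, a membrane inhibitor of TGF-β signalling, ranged from 44.3 to 65.4 in marked and from 57.4 to 75.01 in unmarked lists. Ccnd1, Myc and Bambi overlapped between sides.

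**Figure D3:**
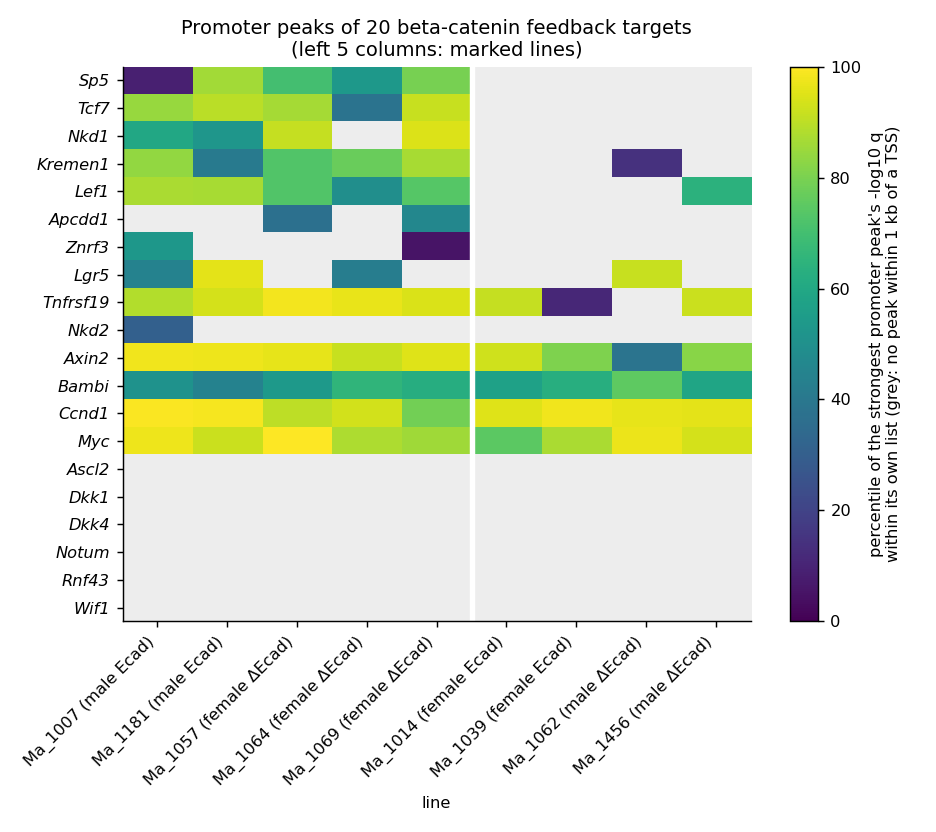
Within-list percentile of the −log10 q of the strongest promoter peak for 20 feedback targets (rows, Sp5 included) in 9 lines (columns, the 5 marked lines on the left), with grey where no peak was called within 1 kb of a TSS. Colour is confined to the left block for Sp5, Tcf7, Nkd1, Apcdd1, Znrf3 and Nkd2 and fills the rows of Axin2, Bambi, Ccnd1 and Myc.

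The other layers of the pathway held 1 gene with the complete division, Tcf7, which is on the list of TCF/LEF factors as well; differences between the layers were not tested. Of 19 Wnt ligands 18 were called in no list, and Wnt5a was called in Ma_1181 alone. Of 18 secreted modulators 17 were called in none, and Dkk3 in 4 marked and 3 unmarked lists. Among 19 receptors and co-receptors, 14 varied, with 10 in a higher share of marked and 4 in a higher share of unmarked lists, and Ma_1007 called 14 of the 19 where Ma_1069 called 3. Of 14 TCF/LEF factors and cofactors, Tcf7 and Lef1 included, 9 varied, with 6 in a higher share of marked and 3 of unmarked lists. Over all variable promoters the shares were 38.6% and 61.4%. Lrp5, an LRP co-receptor, was called in Ma_1007 and in 3 unmarked lists. Of 14 signal transducers 9 were called in all 9 lists, among them Ctnnb1, which encodes β-catenin, with Apc and Gsk3b. The other 5 varied, with 2 in a higher share of marked and 3 in a higher share of unmarked lists. Fzd4, Axin1, Tcf7l1 and Pygo1 were called in both male Ecad lists and no other, 11.1% of the variable pathway genes against 3.79% of all variable promoters.

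Over all Wnt lists, 18 of 96 genes were called in all 9 lists, 42 in none, and of 36 that varied 26 had the higher share in marked lists (72.2%) and 10 in unmarked lists (27.8%). Of all variable promoters, 38.6% and 61.4% had the higher share in marked and in unmarked lists. Of the 36, 17 were called in marked lists alone (47.2%) and 0 in unmarked lists alone, against 21.9% and 8.12% of all variable promoters. Of these 17, only Tcf7, Nkd1 and Znrf3 were called in marked lists of both genotypes. Nkd2, Fzd5, Fzd6, Ror1, Ryk, Dvl1 and Tle2 were called in Ma_1007 alone, and Wnt5a in Ma_1181 alone. Fzd4, Axin1, Tcf7l1 and Pygo1 were called in both male Ecad lists only, and Apcdd1 and Ror2 in female ΔEcad lists only. Whole Wnt lists gave 51 (Ma_1007) and 42 (Ma_1181) called promoters in the male Ecad lines, but 31 (Ma_1057), 29 (Ma_1064) and 28 (Ma_1069) in the female ΔEcad lines, and 28 to 31 in the unmarked lines. As a share of all promoters called in the same list these were 0.362%, 0.343%, 0.350%, 0.295% and 0.376% in the marked lines in that order, and 0.238% to 0.283% in the unmarked lines. The raw counts of the sides overlapped and the shares did not, although in a 500 bp window the shares also overlapped (0.274% in Ma_1064, up to 0.279% in the unmarked lines). The female ΔEcad lists called fewer promoters in all (7451 to 9825) than the unmarked lists (10960 to 11753). The male Ecad lists called more (12236 and 14095). The 18 genes called in every list raise the share where fewer promoters are called. Line Ma_1007 also held the longest list. Of the Sp family, Sp1, Sp2 and Sp3 were called in all 9 lists, Sp4 in 4 marked and 2 unmarked lists, and Sp6, Sp7, Sp8 and Sp9 in none.

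The 25 marked-only promoters besides Sp5 reached beyond the pathway. Of these 25, 12 were protein coding. The highest mean percentiles belonged to Gm49346 and Snora81, which share 1 promoter peak (95.3), and to Gm22604 and the long non-coding gene C030034L19Rik, which share another (91.1), followed by Tcf7 (78.1), Snord99 (76.3), Unc79 (75.8), Gm18727 (75.3), Dop1b (67.8) and Abca6 (67.2). The snoRNA and pseudogene names stand for the peak at their start, which may belong to a neighbouring gene. The 10 unmarked-only promoters were AC102249.1 (75.5), Adamtsl5 (54.8), Prickle2 (54.3), Limk1 (40.5), A530076I17Rik (38.2), Gm26348 (35.3), Gm37968 (33.4), Zfp759 (18.95), Mfsd7a (18.3) and Slc25a34 (16.95). Prickle2 encodes a component of planar cell polarity, a branch of Wnt signalling that does not use β-catenin, and it was not on the pathway lists.

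Joined over all lists, the peaks formed 58221 regions, of which 189 (0.325%, the Sp5 region among them) were called in all 5 marked and no unmarked list and 97 (0.167%) in all 4 unmarked and no marked list. Of the marked-only regions 29 (15.3%) had a TSS within 1 kb, 91 lay in introns, 47 between genes and 22 in exons; of the unmarked-only regions 21 (21.6%) had a TSS, and of all regions 27.4%. The marked-only regions were therefore mostly away from promoters. Their number was 574 without Ma_1181, and that of the unmarked-only regions 459 without Ma_1062, 300 without Ma_1456, 292 without Ma_1007 and 187 without Ma_1181. Such counts are expected to rise with fewer lists. The marked-only regions with the highest mean percentiles lay nearest to the coding genes Usp6nl (chr2:6275610-6282032, 91.1), Dym (chr18:75130853-75136653, 89.1), Prrx1 (chr1:163195518-163200564, 88.8), Nmnat2 (chr1:152985467-152989366, 88.4) and Adgrl2 (chr3:148759861-148765532, 88.1). For the unmarked-only regions these were Eogt (chr6:97123265-97125926, 75.6), Crim1 (chr17:77018356-77021115, 75.02), Cdh13 (chr8:118176749-118180847, 73.2), Sh3glb1 (chr3:144688610-144692115, 69.0) and Prickle2 (chr6:92702261-92706869, 66.6). The region assigned to Crim1 lay 1179133 bp from that gene.

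Of the 96 pathway genes, 7 had a marked-only region within 100 kb of a TSS (7.29%), against 1.78% of 20779 coding genes. They were Tcf7, Nkd1, Kremen1, Znrf3, Tnfrsf19, Tnks and Dvl1. A further 3 had an unmarked-only region in that reach (3.13%: Apc2, Axin1 and Pygo1), against 1.71% of coding genes. The Nkd1 region (chr8:88521425-88525617) began 71 bp downstream of the gene's first start and held 6 TCF/LEF matches, or 1.43 per kb, although no base was shared by the peaks of all 5 marked lines. The first match lay in peaks of the 3 female ΔEcad lists and the others in Ma_1069 alone, so none lay in a male Ecad peak. One Kremen1 region (chr11:5238859-5241215) lay 411 bp upstream of an internal start with 2 matches within 1134 bp shared by all 5 lists. The other (chr11:5295427-5298871) lay in an intron of Znrf3, 33.9 kb from Kremen1 and 82.9 kb from a Znrf3 start, at percentiles of 59.4 to 89.2, so that these 2 genes were counted on the same region. The Tnfrsf19 region (chr14:61004116-61014913), within the gene 23.0 kb from a start, was the longest at 10798 bp and held 13 matches. Matches 9 to 12, in order of position, lay in peaks of all 5 marked lists, and the rest in female ΔEcad peaks only. The regions counted for Dvl1, at the Mxra8 promoter, and for Tnks held 0 and 1. Besides its promoter, Sp5 had marked-only regions 54.7 kb away in an intron of Myo3b and 96.2 kb away in an intron of Gad1, neither with a match.

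The letters recognised by TCF/LEF factors were denser in the marked-only regions than in the other sets, which is given as a description with no test. They held 0.752 matches per kb (391 in 520 kb), the unmarked-only regions 0.405 (73 in 180 kb), the regions called in all 9 lists 0.424 and all regions 0.466. The reversed letters gave 0.408, 0.294, 0.308 and 0.321 per kb. Regions differ in length (medians of 2262, 1661 and 1299 bp for marked-only, unmarked-only and all regions), which the values per kb allow for and the share of regions with a match does not: 81.0%, 44.3% and 46.7%. Base composition was alike, at 44.4% and 44.8% G or C in the marked-only and unmarked-only regions and 46.0% in all. Leaving out each line in turn gave 0.700 to 0.784 per kb in marked-only and 0.371 to 0.427 in unmarked-only regions. Leaving out a line only relaxes the condition, so these sets share regions and the ranges do not measure a spread between lines. The gap narrowed to 0.660 against 0.449 per kb in lists of equal length, and to 0.635 against 0.504 where peaks had to cover at least 50% of a region. Regions without a TSS gave 0.751, 0.414 and, over all such regions, 0.512. The AP-1, MITF and GC box motifs, read on both strands, were not denser in marked-only regions than in all regions. The reversed letters were denser there, at 0.408 against 0.321 per kb. The AP-1 letters TGACTCA stood at 0.208 per kb in marked-only, 0.199 in unmarked-only and 0.242 in all regions. The MITF letters TCACGTGA or TCATGTGA stood at 0.0673, 0.0554 and 0.0716, and the GC box GGGCGG, bound by Sp factors, at 0.185, 0.316 and 0.465. No searched motif contains another.

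Regions divided on the marked side in 1 genotype only differed in TCF/LEF density, which was not tested. Regions called in all 3 female ΔEcad and neither male ΔEcad list, but not divided in that way among Ecad lines, held 0.704 per kb over 1013 regions. The corresponding regions of the Ecad lines, called in both male and neither female list but not so divided among ΔEcad lines, held 0.454 over 2430 regions, close to the 0.466 of all regions, with 0.316 for the reversed letters. The density in the regions shared by both genotypes thus lay closer to that of the female ΔEcad lines than to that of the male Ecad lines.

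**Figure D4:**
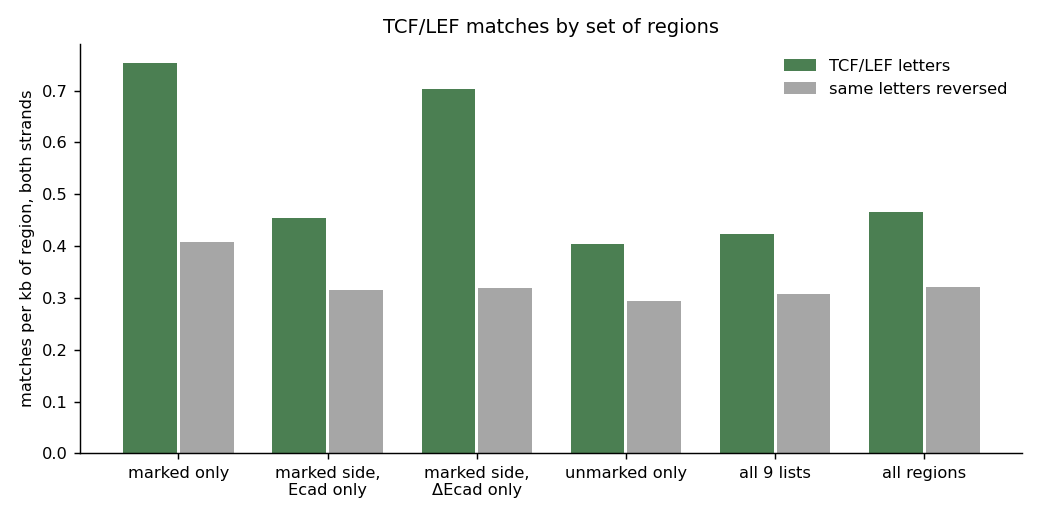
Matches to the TCF/LEF letters and to the same letters reversed per kb, on both strands, in 6 sets of regions. The marked-only regions (0.752) and those divided on the marked side in ΔEcad lines only (0.704) stand above the other 4 sets, which lie between 0.405 and 0.466.

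Of 998 promoters called in both male and neither female Ecad list, 25 (2.51%, 95% Wilson interval 1.70 to 3.67%) were called in all female and neither male ΔEcad list, and 60 (6.01%) were divided the opposite way. Of all variable promoters, 1.18% and 9.13% were divided in those ways in the ΔEcad lines. The share of 2.51% rose to 4.41% without Ma_1062 and to 4.11% without Ma_1064 or Ma_1069. With fewer ΔEcad lists the division is easier to reach, so these 2 values cannot be set against the 1.18%. Seen from the ΔEcad lines, the 25 were 20.7% of the 121 promoters with the Sp5 division there, against 9.76% of all variable promoters with the division in Ecad lines. Among regions, 189 of 2619 (7.22%, interval 6.29 to 8.27%) had the Sp5 division in both genotypes and 79 (3.02%) the opposite one, against 2.396% and 3.40% of variable regions. Regions called on the unmarked side in the Ecad lines had the same division in ΔEcad lines in 97 of 1950 cases (4.97%) and the opposite in 15 (0.769%), against 3.40% and 2.396%; for promoters these were 10 of 233 (4.29%) and 4 (1.72%), against 9.13% and 1.18%. Regions and promoters thus differed. The same division exceeded its share of variable features for regions on both sides and for promoters on the marked side. It fell short of that share for promoters on the unmarked side. Variable features include those called in 1 list, 19741 of 50160 variable regions, which cannot have a division of the ΔEcad lines. Features divided in Ecad lines are never of that kind. The shares of variable features are thus a low reference, and an excess over them cannot show that Sp5 was followed. The intervals cover counting error over features, which are not replicates.

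**Figure D5:**
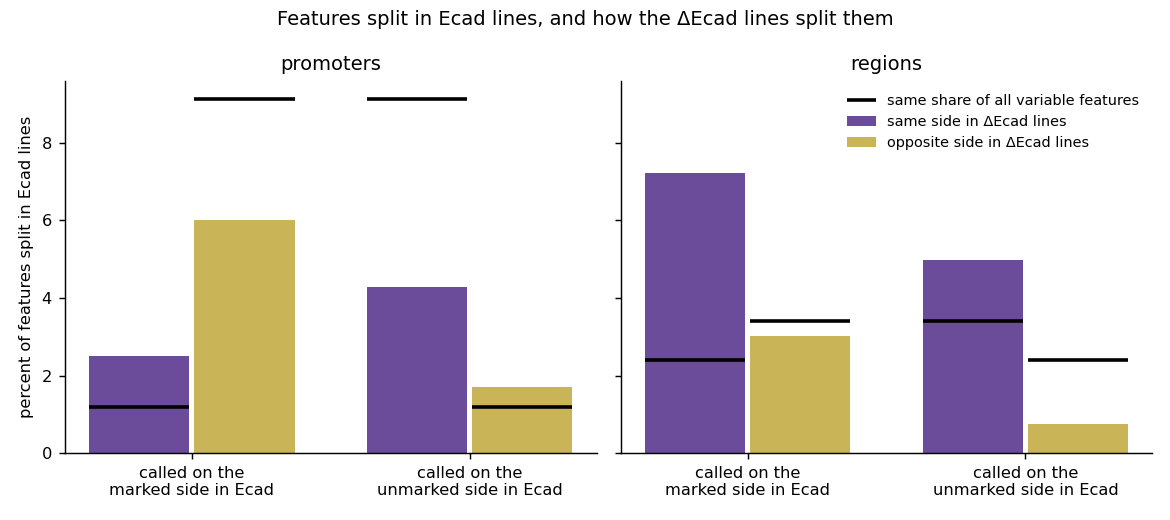
Percent of promoters (left) and regions (right) divided in Ecad lines that were divided the same way (purple) or the opposite way (yellow) in ΔEcad lines, by the side on which they were called in Ecad lines. Black lines give the percent of all variable features, those called in 1 list included, with that division in ΔEcad lines. For regions the same division was 7.22% against 2.396% on the marked side.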

How the data were processed

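Chromatin of each line was fixed, sonicated and precipitated with an anti-H3K27ac antibody. Per the labels and the study's methods, the authors aligned reads to GRCm38/mm10. The submitters' processing notes name Bowtie2 2.4.5, MACS2 2.2.7.1 and deepTools 3.5.1.0.0; peak-calling settings and the pairing with inputs are not given in the sources used here. The deposited peak lists give, per the file layout, start, end and summit offset in bp, a fold enrichment (a linear ratio of a peak over its background; whether an input served as that background is not given), −log10 p and −log10 q, and a score deposited by the authors that is the whole part of 10 times −log10 q in at least 99.8% of peaks. The lowest −log10 q of any list was above 5. The lists hold no counts, so depth is unknown; libraries were pooled for a common target depth per the study's methods, and a missing peak is not a missing mark. The labels do not state that lines came from separate animals, so p-values refer to these lines only. The tests treat the lists as exchangeable and cannot tell a side from the sex and genotype groups that make it up.

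Only the 19 autosomes were used. A promoter was called when a peak overlapped 1 kb on either side of any TSS of a GENCODE M21 gene, and regions were the union of overlapping peaks of all lists. Strength was the percentile of −log10 q within its own list. Whole-list measures were compared by exact permutation tests and promoters by Fisher's exact test with Benjamini-Hochberg adjustment over all of them; calls, joins and tests were checked on simulated peaks with known answers. Python 3.11.15, numpy 2.4.6, pandas 2.3.3 and scipy 1.17.1 were used. Named genes were Sp5, all β-catenin feedback targets, other Wnt and Sp genes equal or opposite to Sp5 in at least 8 of 9 lists, the 10 promoters and 5 regions of each direction with the highest mean percentile, and Cdh1; others are examples chosen after their values were seen. The members, gene lists and motifs were chosen with earlier results of these data known, and the 100 kb reach, the TCF/LEF comparison across settings and the count of targets by side were added after the data were seen.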

Additional observations from a re-analysis of the deposited data

Results flagged for a closer look

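The number of Wnt pathway promoters called in line Ma_1014, 28, stood apart below the 31 of each of the other 3 unmarked lines by a test of gaps (Dixon's critical value at 95%). This was 1 of 42 such tests over 7 measures of the lists, in groups that share lines. About 1 in 20 is flagged by chance when values are continuous. Here the other 3 counts were tied, so a difference of any size would have been flagged. Tcf7 had opposite sex differences in the 2 genotypes: the percent of male minus that of female lists with a called promoter was 100 points in Ecad lines and -100 points in ΔEcad lines. This follows from how the sides were chosen together with the split of Tcf7, and the difference was not tested. The same opposite pattern held for the 25 promoters and 189 regions called in male Ecad and female ΔEcad lines only, and for the 10 promoters and 97 regions called in female Ecad and male ΔEcad lines only; these differences were not tested either.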

How the results depend on the processing

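The Jaccard difference fell under 0.05 in whole lists (exact permutation p = 0.0476) and in lists of equal length. It missed 0.05 at a −log10 q of at least 10 (0.0443, exact permutation p = 0.0556) and in merged regions (0.0376, exact permutation p = 0.0556). Without single lines it was 0.0206 (Ma_1014) to 0.0788 (Ma_1181), with exact permutation p from 0.0286 to 0.214. The test moved single lists, so none of these values can tell the side from the group. Differences in peak number, covered length and width passed under no alternative, and 0 promoters passed the Fisher test in any.

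Marked-only regions numbered 115 in lists of equal length and 111 where peaks had to cover at least 50% of a region, and, without single lines, 205 (Ma_1057) to 574 (Ma_1181). Unmarked-only regions numbered 103 to 459 without single lines, rising over 1.5 times without Ma_1007 (292), Ma_1181 (187), Ma_1062 (459) and Ma_1456 (300). Marked-only promoters numbered 27 to 61 without single lines, rising over 1.5 times without Ma_1181 (61), Ma_1062 (44), Ma_1064 (41) and Ma_1069 (41). Unmarked-only promoters numbered 16 in lists of equal length, 18 in a 2 kb window and 10 to 69 without single lines, rising over 1.5 times without Ma_1007 (65), Ma_1181 (30), Ma_1062 (69) and Ma_1456 (40). Fewer lists make a complete division easier to reach, so counts without a line are expected to rise.

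Wnt promoters with the complete division numbered 1 (Tcf7) in the report, 2 in lists of equal length (Kremen1, Tcf7), 0 in a 500 bp window, 2 in a 2 kb window (Nkd1, Tcf7) and 1 to 2 without single lines: Kremen1 joined without Ma_1062, Lef1 without Ma_1456 and Nkd1 without Ma_1064. Of the promoters with the Sp5 division in Ecad lines, 1.84% to 4.41% had it in ΔEcad lines without single lines, 4.41% without Ma_1062 and 4.11% without Ma_1064 or Ma_1069. Fewer ΔEcad lists make that division easier to reach as well. Targets with a higher share in marked lists numbered 8 to 9 in all alternatives; in a 500 bp window 2 targets, Bambi and Lgr5, had a higher share in unmarked lists, and 0 in the other alternatives. The TCF/LEF density of marked-only minus unmarked-only regions was 0.348 per kb, 0.212 in lists of equal length, 0.131 where peaks had to cover at least 50% of a region, and 0.288 (Ma_1069) to 0.391 (Ma_1057) without single lines. These last alternatives were chosen after seeing the data, and the cause of the changes was not tested. With a −log10 q of at least 10, and in lists of equal length, the Sp5 promoter was called in 4 lists and not in Ma_1007; the sides were kept. Depth limits all counts, since peaks below the threshold are not listed. No paired analysis was possible because the labels give no replicate numbers that pair lines.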
